A study of Homo sapiens with 4 samples.

Results

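The 10 genes listed as immediate early factors were *EGR1*, *EGR2*, *EGR3*, *FOS*, *FOSB*, *FOSL2*, *JUN*, *JUNB*, *JUND* and *IER2*. They were followed in HEK293 cells given siRNA against *CNOT4*. They are 10 of 20457 listed gene symbols, each matched by its exact symbol, and all 10 passed the minimum mean TPM of 1 that left 14208 features for testing. TPM is transcript abundance per gene length, scaled to a sum of 1000000 in each library. *EGR1* was chosen by its value in the siCNOT4 against siControl comparison, where its increase was the largest of all tested features. Its values are therefore given as a description with no test. The other 9 were listed to see whether they moved with it.

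HEK293 is a long-established human line of embryonic kidney origin, labelled wild type in all 4 libraries. The 2 siControl libraries came from cells given a negative control siRNA and the 2 siCNOT4 libraries from cells given siRNA against *CNOT4*, in each case at 10 nM for 72 h, in medium with fetal bovine serum. CNOT4 is a RING-type E3 enzyme that attaches ubiquitin and binds CCR4-NOT, a deadenylase complex. Poly(A) RNA was sequenced from stranded libraries. The labels do not say whether replicates were separate cultures, so p-values measure only the spread between these libraries.

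Immediate early genes are transcribed from pre-assembled promoters within minutes of a growth factor, serum or stress signal, without new protein synthesis. Growth factor signals pass through RAS, RAF, MEK and ERK to the ETS-domain cofactors of serum response factor (SRF), which binds CArG boxes, and through kinases that phosphorylate CREB, which binds the cAMP response element (CRE). EGR proteins are zinc finger factors that bind GC-rich sites. FOS proteins pair with JUN proteins to form AP-1. Many of these mRNAs carry AU-rich elements in the 3′ UTR, which bring in binding proteins such as ZFP36 and, through them, deadenylases including CCR4-NOT.

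The promoters of the members differ in which of these elements they hold. RefSeq windows of 250 bases before to 50 bases after the start site (GRCh38.p14) were held for 9 of the 10 members, with 3 start sites for *EGR2*. The 150 bases before the start are printed for *EGR1* and *EGR2*, whose windows held a CArG box, for *FOS* and *JUN*, the AP-1 founders, and for *JUNB* and *JUND*, whose values lay on the other side. They read 5′ to 3′ on the gene's strand. Capitals mark CArG boxes, CRE half-sites (TGACGT, or ACGTCA on the other strand) and the AP-1-like octamer TGACATCA.
EGR1, chr5:138465329-138465478, plus strand: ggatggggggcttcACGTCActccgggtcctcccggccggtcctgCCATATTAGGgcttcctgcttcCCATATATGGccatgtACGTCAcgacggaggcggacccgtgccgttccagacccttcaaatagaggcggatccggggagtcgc
EGR2, the start farthest downstream, chr10:62816367-62816516, minus strand: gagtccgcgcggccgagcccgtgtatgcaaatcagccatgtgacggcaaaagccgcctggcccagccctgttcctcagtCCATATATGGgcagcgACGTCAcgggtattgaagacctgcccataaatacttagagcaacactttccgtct
FOS, chr14:75278678-75278827, plus strand: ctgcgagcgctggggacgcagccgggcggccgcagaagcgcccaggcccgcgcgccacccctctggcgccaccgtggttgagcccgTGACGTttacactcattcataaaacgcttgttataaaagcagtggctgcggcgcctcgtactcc
JUN, chr1:58784048-58784197, minus strand: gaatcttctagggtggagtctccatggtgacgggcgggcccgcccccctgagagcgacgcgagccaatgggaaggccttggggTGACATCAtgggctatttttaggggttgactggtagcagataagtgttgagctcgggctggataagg
JUNB, chr19:12791336-12791485, plus strand: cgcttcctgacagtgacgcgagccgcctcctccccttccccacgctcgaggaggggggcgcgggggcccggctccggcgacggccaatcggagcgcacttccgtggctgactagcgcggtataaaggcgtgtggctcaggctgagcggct
JUND, chr19:18281623-18281772, minus strand: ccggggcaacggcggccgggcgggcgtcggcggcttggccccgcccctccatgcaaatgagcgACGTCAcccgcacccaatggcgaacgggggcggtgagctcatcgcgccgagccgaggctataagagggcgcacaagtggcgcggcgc

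The EGR1 window held 2 CArG boxes, starting 105 and 83 bases before the start, and CRE half-sites at 136 and 67 bases. The *EGR2* start farthest downstream had the same pair of elements, a CArG box at 71 bases and a half-site at 55. A CArG box occurred in 1.29% and a CRE half-site in 7.98% of 35116 windows of the same length, both strands searched. *FOS*, *FOSB* and *FOSL2* each had 1 half-site, at 64, 60 and 66 bases. The serum response element known for *FOS* lies farther upstream than this window. *JUND* had a full CRE (TGACGTCA, 1.85% of windows) at 200 bases, which contains a half-site on each strand, and another half-site at 87. *JUN* had TGACATCA at 67 bases (2.61% of windows). *FOSL2* had the only AP-1 site (TGACTCA or TGAGTCA, 4.95% of windows) in the members' windows, just after its start. *JUNB* and *IER2* held none of these letters in their windows. The half-site and TGACATCA were added to the search after the members' sequences were seen, and a match is a description of letters, not of binding.

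The libraries held 24472354 to 27797019 reads on genes, recovered from the steps of the TPM values. *CNOT4* itself was at 6.43 and 4.73 TPM in siControl and 3.38 and 3.81 TPM in siCNOT4, a ratio of means of 0.644, and its log2 fold change of -0.51 (SE 0.26) had a limma adjusted p of 0.184. *CNOT4* was called lower after TMM scaling (-1.0, limma adjusted p = 0.0329), after quantile normalization (-1.15, 0.0252), with voom (-0.92, 0.0394) and without siControl replicate 2 (-0.70, 0.00975), and was at -0.32 (0.0871) without siControl replicate 1. The siControl libraries differed from each other by a median of 0.38 on the log2(TPM + 1) scale over 14208 features, replicate 1 being higher, against -0.03 for the siCNOT4 libraries. The median log2 fold change over all features was 0.50 for siCNOT4 over siControl, 0.29 without siControl replicate 2, -0.04 after trimmed-mean scaling (TMM, trimmed mean of M values) and 0.02 after quantile normalization. Called genes split into 1608 higher and 184 lower for TPM as deposited, 585 and 821 after TMM scaling, and 1010 and 1169 after quantile normalization. As shares of 14208 features, the scaled calls were 4.12% higher and 5.78% lower (TMM), and 7.11% and 8.23% (quantile normalization). Of 10 HEK293 markers, 9 were at 1 TPM or more in every library (*NEFM* was below 1). Their summed level was 1977 and 1639 TPM in siControl and 1441 and 1447 TPM in siCNOT4, with *VIM* at 917 and 650 against 369 and 354 TPM; the part of this difference in the results was not tested. Of 10 markers of other cell types, 8 were below 1 TPM in every library, with *AFP* at 0 throughout; their summed level was 22.9 to 32.2 TPM in siControl and 31.7 to 32.5 TPM in siCNOT4, mostly *CD68*. The fibroblast collagen gene *COL1A1* was at 1.39 and 0.906 TPM in siControl and 5.09 and 6.60 TPM in siCNOT4; its part in the results was not tested.

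The 10 factors did not move together. In 7 of them (*EGR1*, *EGR2*, *EGR3*, *FOS*, *FOSB*, *FOSL2*, *JUN*) both siCNOT4 libraries lay above both siControl libraries, and in the other 3 (*JUNB*, *JUND*, *IER2*) both lay below. In bulk RNA, a change in every cell and a change in some cells cannot be told apart. Over all tested features the shares were 66.4% above and 10.6% below. Among the 9 members other than *EGR1*, limma on log2(TPM + 1) at an adjusted p under 0.05 called 2 higher (*EGR2* and *EGR3*) and 0 lower, where 11.3% of all features were called higher and 1.30% lower. At an unadjusted p under 0.05, 8 of the 9 passed, as did 42.0% of all features. Voom on the recovered reads called *EGR2*, *EGR3* and *FOS* higher and *JUND* lower, where it called 10.9% of all features higher and 3.04% lower. The median log2 fold change of the 9 was 0.71, against 0.50 over all features. Every fold change below is on the log2(TPM + 1) scale of TPM as deposited unless stated, and understates the change of genes near 1 TPM. Leaving out a library leaves its group with 1, which is then taken to vary like the other group. Over all features that called 79.6% without siControl replicate 1, 57.5% without siControl replicate 2, 3.35% without siCNOT4 replicate 1 and 3.17% without siCNOT4 replicate 2, and calls with a library left out are to be read against these shares.

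**Figure D1:**
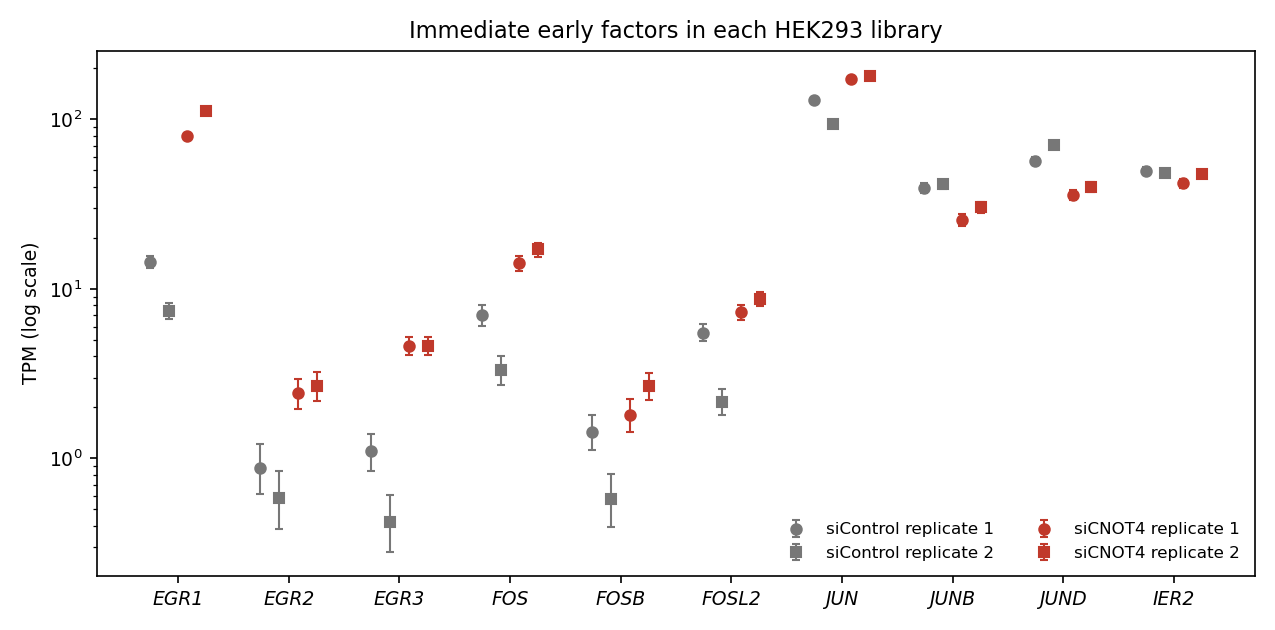
TPM of each factor (log axis) in the 4 libraries, grey for siControl and red for siCNOT4, circles for replicate 1 and squares for replicate 2, with 95% Poisson intervals on recovered reads (counting error only). For EGR1 to JUN both red points lie above both grey points, and for JUNB, JUND and IER2 both lie below.

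By the ratio of mean TPM, the EGR genes had the largest increases among the members, while on the log2(TPM + 1) scale *FOS* (1.50) lay above *EGR2* (1.04). *EGR1*, the founder of the family and a regulator of growth and stress genes, was at 14.4 and 7.41 TPM in siControl and 80.1 and 112 TPM in siCNOT4 (10.9 ± 4.97 against 95.9 ± 22.3, mean ± SD, n = 2 each). Both siCNOT4 libraries were high, and siControl replicate 2 was the lowest. The ratio of means was 8.77 and the log2 fold change 3.07 (SE 0.35), rank 1 of 14208. It was 2.63 without siControl replicate 2, 3.51 without siControl replicate 1, 2.50 after TMM scaling and 2.62 after quantile normalization. The recovered reads were 587 and 342 against 3101 and 4270, so counting error was at most 5.41% of any *EGR1* value.

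*EGR3*, a member with roles in lymphocytes, muscle spindles and neurons, was at 1.10 and 0.423 TPM in siControl and 4.62 and 4.61 TPM in siCNOT4, from 64, 28, 257 and 253 reads. The siCNOT4 libraries were nearly equal and both above siControl, while the siControl libraries differed by 2.59 times. *EGR3* rose 6.08-fold by the ratio of means, and by 1.70 on the log2 scale (SE 0.25, limma adjusted p = 0.0244), or 1.20 above the median of all features. Without siControl replicate 2 it was 1.42. It passed the threshold under each of the other settings that tested it, and a minimum mean of 5 TPM removed it. With voom on reads, which uses a smaller offset, its log2 fold change was 2.44.

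*EGR2*, which directs myelination and hindbrain patterning, was at 0.882 and 0.583 TPM in siControl and 2.42 and 2.68 TPM in siCNOT4, from 36, 27, 94 and 103 reads. The groups did not overlap, and neither did the 95% Poisson intervals of their libraries (0.384 to 1.22 TPM against 1.96 to 3.25 TPM). *EGR2* rose 3.48-fold by the ratio of means, and by 1.04 on the log2 scale (SE 0.19, limma adjusted p = 0.0327). That call is close to the threshold: the adjusted p was 0.0508 after TMM scaling, 0.0567 with a pseudocount of 0.1, and 0.119 after quantile normalization, where the log2 fold change was 0.39. It was 0.0557 without siCNOT4 replicate 1 and 0.0973 without siCNOT4 replicate 2. Without siControl replicate 2 the log2 fold change was 0.91.

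*EGR4*, the remaining family member, had 2 and 0 reads in siControl and 2 and 3 in siCNOT4, at or under the floor of 3 reads, so no fold is given. The summed EGR family level went from 16.5 and 8.42 TPM to 87.2 and 119 TPM, of which *EGR1* made up 87.6% and 88.1% in siControl and 91.8% and 93.8% in siCNOT4. The corepressors NAB1 and NAB2 bind EGR proteins and curb them, and *NAB2* is itself an EGR target. *NAB1* was at 42.3 and 17.9 against 44.3 and 46.4 TPM (log2 fold change 0.70, limma adjusted p = 0.212). *NAB2* was at 13.1 and 8.15 against 13.8 and 19 TPM (0.60, limma adjusted p = 0.205). The ratio of *EGR1* to *NAB2* TPM within a library, which no linear scaling of a library alters, went from 1.11 and 0.91 to 5.79 and 5.89.

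The FOS genes encode the partners that form stable AP-1 only with a JUN protein. *FOS* was at 7.01 and 3.31 TPM in siControl and 14.2 and 17.1 TPM in siCNOT4 (5.16 ± 2.62 against 15.6 ± 2.03, SD, n = 2 each), from 105 to 449 reads. The groups did not overlap, and siControl replicate 1 was 2.12 times replicate 2. The ratio of means was 3.03 and the log2 fold change 1.50 (SE 0.37), with a limma adjusted p of 0.0503, just short of a call. *FOS* passed after quantile normalization (0.89, adjusted p = 0.0418) and with voom (1.39, adjusted p = 0.0412), and missed after TMM scaling (0.97, adjusted p = 0.0588). Without siControl replicate 2 it was 1.05 (limma adjusted p = 0.00221), without siControl replicate 1 it was 1.94 (8.4e-05), and without siCNOT4 replicate 1 or 2 it was 1.62 (0.272) or 1.37 (0.368).

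*FOSB*, best known for its long-lived splice form in neurons, was at 1.43 and 0.576 TPM in siControl and 1.80 and 2.67 TPM in siCNOT4, from 32 to 123 reads. Its lowest siCNOT4 library was close to siControl replicate 1, and their 95% Poisson intervals overlapped (1.44 to 2.23 against 1.12 to 1.81 TPM). The log2 fold change was 0.71 (SE 0.27, limma adjusted p = 0.104), 0.40 without siControl replicate 2 (0.164) and 1.03 without siControl replicate 1 (0.00602). *FOSL2*, a FOS relative with roles in bone and stroma, was at 5.53 and 2.16 TPM against 7.27 and 8.75 TPM. Its log2 fold change was 0.98 (SE 0.39, limma adjusted p = 0.113), and leaving out siControl replicate 2 or 1 gave 0.46 (0.0411) or 1.51 (2.5e-04). Without siCNOT4 replicate 1 or 2 its adjusted p was 0.425 or 0.54. After quantile normalization the groups overlapped for both genes, and *FOSB* also overlapped after TMM scaling.

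*FOSL1*, the FOS family gene outside the 10, was at 2.82 and 2.40 TPM in siControl and 1.94 and 2.51 TPM in siCNOT4, overlapping between groups (log2 fold change -0.17, limma adjusted p = 0.567). Within the summed FOS family TPM, *FOS* took 41.7% and 39.1% in siControl and 56.3% and 55.0% in siCNOT4. *FOSL1* took 16.8% and 28.5% in siControl and 7.71% and 8.09% in siCNOT4. The shares of *FOSB* and *FOSL2* overlapped between the groups. For such shares and ratios, 2 libraries against 2 cannot reach a p below 0.333 in an exact two-sided permutation test, so they are descriptions.

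*JUN*, the most abundant member in both groups, was at 131 and 94.4 TPM in siControl and 174 and 180 TPM in siCNOT4 (113 ± 26.1 against 177 ± 4.27, SD, n = 2 each). The siCNOT4 libraries were close together and above siControl, while the siControl libraries differed by 1.39 times. The log2 fold change was 0.66 (SE 0.20, limma adjusted p = 0.067), and relative to the median of all features it was 0.16. It was 0.06 after TMM scaling and 0.44 after quantile normalization. Leaving out siControl replicate 2 gave 0.43 (limma adjusted p = 0.00443), and leaving out replicate 1 gave 0.90 (1.1e-04). Without siCNOT4 replicate 1 or 2 the adjusted p was 0.397 or 0.438.

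*JUNB* and *JUND*, the JUN relatives that often oppose JUN in growth control, were lower. *JUND* was at 57.1 and 71.1 TPM in siControl and 35.7 and 40.0 TPM in siCNOT4, a ratio of means of 0.591. *JUNB* was at 39.5 and 41.5 TPM against 25.6 and 30.3 TPM, a ratio of 0.69. The groups did not overlap for either gene. For TPM as deposited neither passed (*JUND* -0.74, SE 0.21, limma adjusted p = 0.0606; *JUNB* -0.52, SE 0.21, adjusted p = 0.116).

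Both genes passed under the 2 scalings that bring the median of all features near 0. After TMM scaling, *JUND* was at -1.33 (limma adjusted p = 0.0459) and *JUNB* at -1.11 (0.0434). After quantile normalization they were at -1.11 (0.0351) and -0.97 (0.0357). With voom, *JUND* was at -1.05 (0.0481) and *JUNB* at -0.84 (0.0531). Without siControl replicate 2, *JUND* was at -0.58 (0.00491) and *JUNB* at -0.49 (0.0168), and without siControl replicate 1 at -0.89 (3.6e-04) and -0.56 (0.00629). Without siCNOT4 replicate 1 or 2 the adjusted p was 0.506 or 0.422 for *JUND* and 0.708 or 0.591 for *JUNB*.

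For TPM as deposited, the JUN family differed in make-up more than in sum. Its members together came to 228 and 207 TPM with control siRNA, and 235 and 250 TPM with siRNA against *CNOT4*. This sum depends on the scaling and was not computed after TMM scaling. There the log2 fold changes were 0.06 for *JUN*, -1.11 for *JUNB* and -1.33 for *JUND*. Shares within a library do not change with a linear scaling. *JUN* took 57.6% and 45.6% of the summed TPM in siControl and 73.9% and 71.9% in siCNOT4. The ratio of *JUN* to *JUNB* was 3.32 and 2.28 against 6.79 and 5.92, and that of *JUN* to *JUND* 2.30 and 1.33 against 4.86 and 4.49. The ratio of *JUNB* to *JUND* differed less, at 0.692 and 0.584 against 0.716 and 0.758, though its groups did not overlap either.

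**Figure D2:**
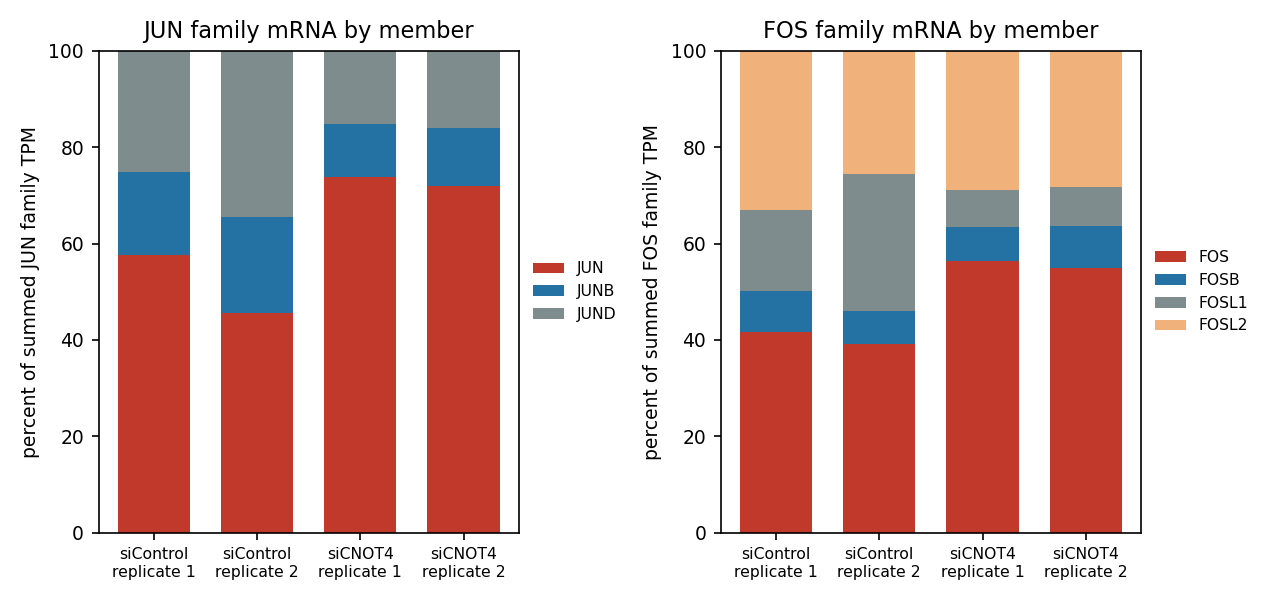
Stacked bars of the percent of summed TPM taken by each member of the JUN family (left) and the FOS family (right, FOSL1 included) in each of the 4 libraries. JUN fills 45.6% to 57.6% of the JUN family in siControl and 71.9% to 73.9% in siCNOT4, and FOS fills 39.1% to 41.7% of its family in siControl and 55.0% to 56.3% in siCNOT4.

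*IER2*, a small nuclear protein whose gene responds quickly to growth factors, did not rise with *EGR1*. It was at 49.5 and 48.1 TPM in siControl and 42.1 and 47.8 TPM in siCNOT4. The highest siCNOT4 library was within 1 TPM of the lowest siControl library. Its log2 fold change was -0.12 (SE 0.19, limma adjusted p = 0.638), -0.71 after TMM scaling (0.0682), -0.53 after quantile normalization (0.0727) and -0.14 without siControl replicate 2. The ratio of *EGR1* to *IER2* went from 0.292 and 0.154 in siControl to 1.91 and 2.34 in siCNOT4.

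By mean TPM, which is per length and so comparable between genes, the order in siControl was *JUN*, *JUND*, *IER2*, *JUNB*, *EGR1*, *FOS*, *FOSL2*, *FOSB*, *EGR3*, *EGR2*. The libraries of *FOS* and *FOSL2* overlapped, as did those of *FOSB*, *EGR3* and *EGR2* with their neighbours. In siCNOT4 the order was *JUN*, *EGR1*, *IER2*, *JUND*, *JUNB*, *FOS*, *FOSL2*, *EGR3*, *EGR2*, *FOSB*, and only *EGR2* and *FOSB* overlapped. *EGR1* moved from rank 5 to rank 2, passing *JUNB*, *IER2* and *JUND*.

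The direction of each member kept to its sign under all 11 alternatives that tested it, but the sizes followed the scaling. The lowest fold changes of the higher members were 0.07 for *FOSB* (quantile normalization) and 0.06 for *JUN* (TMM scaling). The siControl libraries also ordered the members: replicate 1 exceeded replicate 2 by 1.39 to 2.59 times for the 7 members that were higher in siCNOT4, and the ratio was 0.803 to 1.03 for *JUND*, *JUNB* and *IER2*. The part of this difference between siControl libraries in the results was not tested; the values without siControl replicate 2 stand beside each gene.

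**Figure D3:**
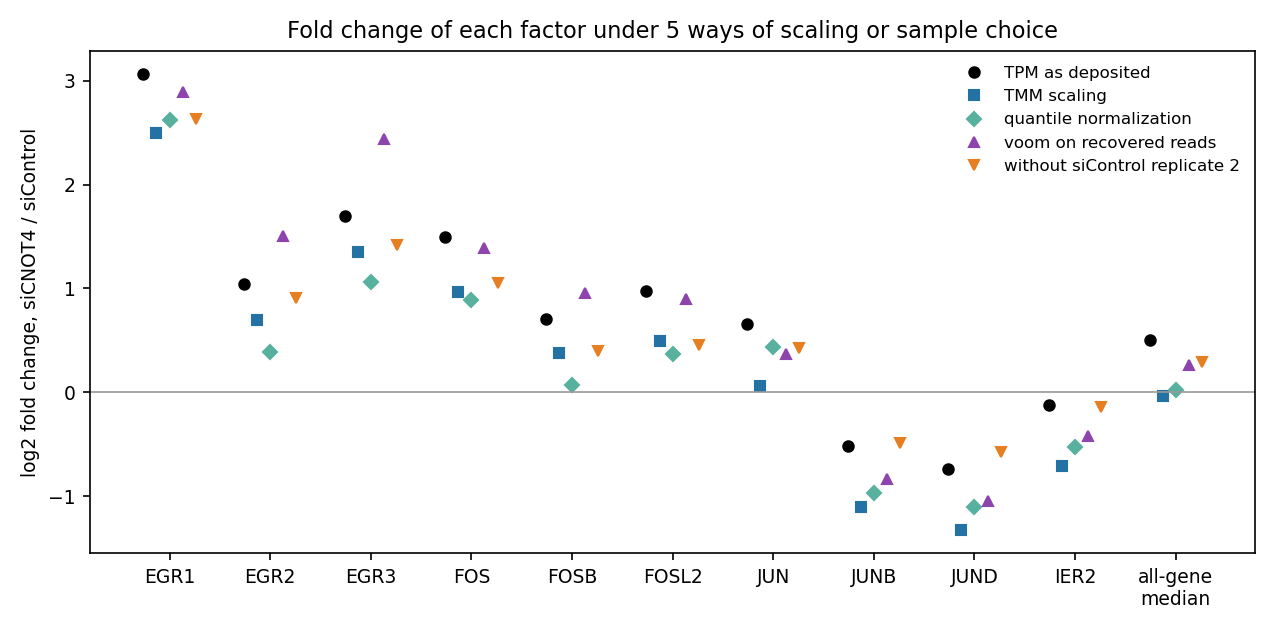
Log2 fold change of each factor and of the median feature (siCNOT4 over siControl) for TPM as deposited, TMM scaling, quantile normalization, voom on recovered reads, and without siControl replicate 2. EGR1 stays between 2.50 and 3.07 and JUND between -1.33 and -0.58, while JUN comes down to 0.06 and FOSB to 0.07 under a scaling.

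The members also differed in transcript structure, read from the principal GENCODE 29 transcript of each gene. *JUN*, *JUNB*, *JUND* and *IER2* have 1 exon, as do 2.18% of 11667 tested genes, while the EGR genes have 2 and the FOS genes 4. The 3 lower members had the highest GC content: 69.7% for *JUND*, 64.9% for *JUNB* and 61.7% for *IER2*, against 50.9% (*EGR2*) to 57.7% (*FOSB*) for the 7 higher ones and a median of 48.6% over the tested genes. GC content thus moved with the direction, and its part in the result was not tested. *IER2* was only slightly lower (log2 fold change -0.12, limma adjusted p = 0.638), so the lower side rests mainly on *JUND* and *JUNB*.

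AU-rich pentamers did not separate the 2 directions. ATTTA occurred 5 times in the *FOS* 3′ UTR (6.20 per kb), 9 times in that of *FOSL2* (1.85 per kb) and once in that of *EGR1* (0.81 per kb). *JUNB* had 2 (4 per kb), *JUND* had 1 and *IER2* had 0, against a median of 1.76 per kb over tested genes. The *FOSL2* transcript read here is 6708 nt long, against the 3991 nt behind its TPM. The nonamer TTATTTATT was found in *FOS* and *FOSL2* and in 9.22% of tested genes.

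The relatives of the EGR and AP-1 factors (10 tested of 12 listed) gave 0 genes higher and 1 lower, with a median log2 fold change of 0.64 against 0.50 over all features, where 11.3% were called higher and 1.30% lower. The lower one was *JDP2*, a JUN dimerization protein that represses AP-1 targets, at 8.45 and 6.66 TPM in siControl and 2.26 and 1.67 TPM in siCNOT4. The siCNOT4 libraries were both low. *JDP2* fell by 1.53 on the log2 scale (SE 0.26, limma adjusted p = 0.0288), by 1.99 after TMM scaling and by 2.16 after quantile normalization, where it passed as well. Without siCNOT4 replicate 1 or 2 the adjusted p was 0.17 or 0.314, and with no filter on low values it was 0.0548. *ATF3*, a stress-induced AP-1 partner, was at 76.6 and 48.1 against 105 and 102 TPM (0.76, limma adjusted p = 0.078). Without siControl replicate 1 or 2 the list had 9 or 5 calls, and without either siCNOT4 library 0.

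Of 32 tested genes in the list of other immediate early genes, 5 rose and 1 fell, with a median of 0.34, below the 0.50 of all features, of which 11.3% were called higher and 1.30% lower. *RHOB*, a short-lived small GTPase, was at 57.7 and 52.3 TPM in siControl and 166 and 161 TPM in siCNOT4, that is 1.56 on the log2 scale (SE 0.16, limma adjusted p = 0.0227), and passed under every alternative. *ZFP36*, which encodes the AU-rich element binding protein tristetraprolin, went from 8.81 and 7.02 to 18.5 and 22.5 TPM (1.27, limma adjusted p = 0.0436). *KLF2*, a zinc finger factor of endothelium and lymphocytes, went from 1.31 and 1.65 to 4.37 and 4.62 TPM (1.15, limma adjusted p = 0.0339). Both calls are close to the threshold: the adjusted p was 0.0564 for *ZFP36* and 0.0862 for *KLF2* after TMM scaling, and 0.0565 and 0.162 after quantile normalization. Without siCNOT4 replicate 1 or 2 it was 0.369 or 0.476 for *ZFP36* and 0.178 or 0.208 for *KLF2*. For these 3 genes siControl replicate 1 was 1.10, 1.25 and 0.795 times replicate 2, against 1.95 times for *EGR1*.

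*GADD45B* (1.02, limma adjusted p = 0.0466) and *MCL1* (0.98, adjusted p = 0.0499) completed the higher calls, named after their values were seen. *ID3*, an inhibitor of basic helix-loop-helix factors, fell by 0.80 (limma adjusted p = 0.0497), from 110 and 86.3 to 52.6 and 58.8 TPM. TMM scaling gave 1 gene higher and 7 lower in this list, and quantile normalization 2 and 9. Without siControl replicate 1 or 2 the list had 26 or 22 calls, and without either siCNOT4 library 1.

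Of 11 genes for SRF, its cofactors and CREB, limma called 0 at an adjusted p under 0.05, against 11.3% higher and 1.30% lower over all features. At an unadjusted p under 0.05 there were 3, against 42.0% of all features, and voom called 1 higher, TMM scaling 1 lower and quantile normalization 2 lower. The median was 0.80, against 0.50 over all features. *SRF* itself overlapped between the groups (35.8 and 27.5 against 26.7 and 28.6 TPM). The largest change was in *ELK4*, an ETS-domain SRF cofactor, at 9.92 and 4.60 against 18.5 and 19.1 TPM (1.34, limma adjusted p = 0.0608). Without siControl replicate 1 or 2 the list had 8 or 7 calls.

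Of 24 genes for RAS, RAF and MAP kinases, 2 rose and 0 fell, against 11.3% and 1.30% of all features, and the median was 0.81 against 0.50. *NRAS*, a RAS GTPase, was at 84.9 and 48.1 against 155 and 147 TPM (1.23, limma adjusted p = 0.0443). *RPS6KA1*, the ERK-activated kinase RSK1, was at 22.9 and 14.8 against 42.4 and 45.0 TPM (1.20, limma adjusted p = 0.0445). After TMM scaling neither was called (limma adjusted p = 0.0800 for *NRAS*, 0.0588 for *RPS6KA1*). Both were called after quantile normalization (0.0402 and 0.0341) and with voom (0.0449 and 0.0394). Neither passed with a pseudocount of 0.1, with no filter on mean TPM or with a mean TPM of at least 5. Without siControl replicate 2 their log2 fold changes were 0.82 and 0.90.

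The genes that ERK signalling switches on gave 5 higher and 0 lower of 16, against 11.3% and 1.30% of all features. The median was 0.41, below the 0.50 of all features. The PEA3-type ETS factors led the list. *ETV5* was at 3.57 and 3.15 TPM in siControl and 11.2 and 16.3 TPM in siCNOT4 (log2 fold change 1.74, SE 0.30, limma adjusted p = 0.0289). *ETV4* was at 2.49 and 1.75 against 7.37 and 9.95 TPM (1.63, limma adjusted p = 0.0291). *ETV1* was at 4.07 and 1.90 against 9.63 and 11.0 TPM (1.56, limma adjusted p = 0.0436).

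In each of the 3 ETV genes both siCNOT4 libraries were at least 2 times every siControl library. The inhibitors *SPRED3* (1.09) and *SPRY4* (1.08) were the other calls, named after their values were seen. The phosphatase genes *DUSP4*, *DUSP5* and *DUSP6*, chosen after their values were seen, had log2 fold changes of 0.02, 0.28 and 0.45 and were not called. TMM scaling and quantile normalization each gave 3 higher and 2 lower in this list. Without siControl replicate 1 or 2 the list had 13 or 10 calls, and without either siCNOT4 library 0.

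The AU-rich element binding proteins gave 1 call of 9, *ZFP36*, which is also in the list of other immediate early genes; the median was 0.29, against 0.50 over all features, of which 11.3% were called higher and 1.30% lower. The calls differed under the scalings: TMM scaling gave 0 higher and 1 lower, and quantile normalization 0 higher and 2 lower. *ZFP36* kept its direction there (log2 fold changes 0.71 and 0.68) but was not called (limma adjusted p = 0.0564 and 0.0565). The destabilizing factor *KHSRP* was at 146 and 106 against 87.8 and 93.1 TPM (-0.46, limma adjusted p = 0.135), a gene named after its values were seen. Without siControl replicate 1 or 2 the list had 8 or 5 calls, and without either siCNOT4 library 0.

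**Figure D4:**
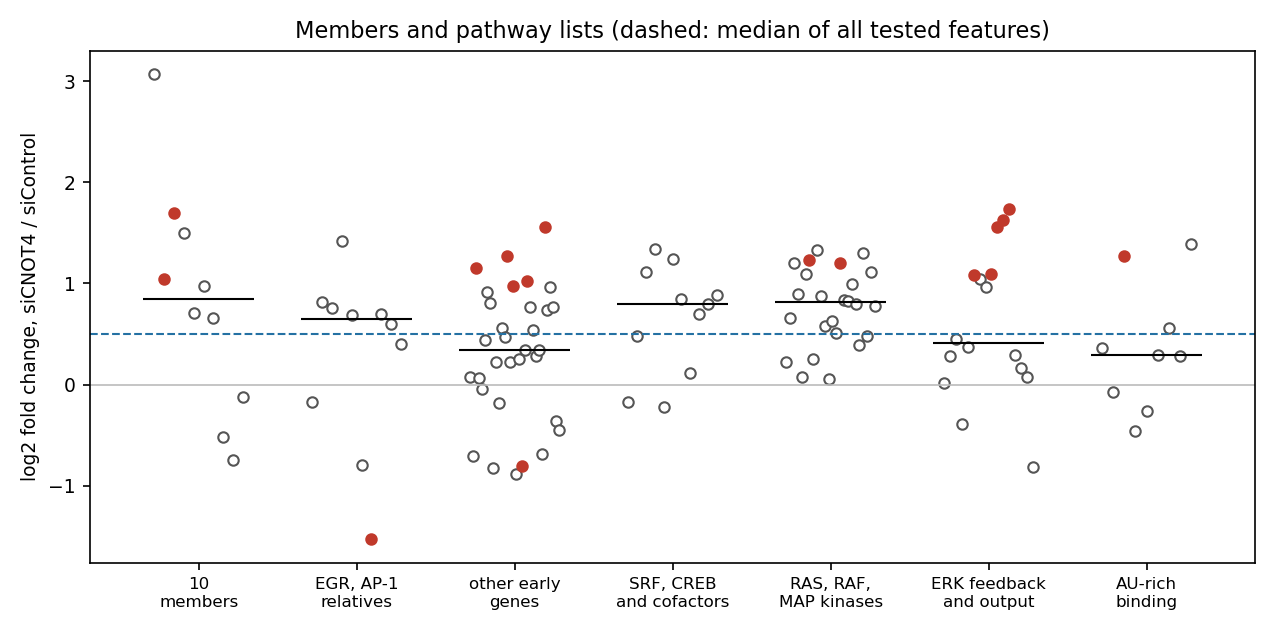
Log2 fold change (siCNOT4 over siControl, TPM as deposited) of each tested gene in the members and 6 pathway lists, filled red where the limma adjusted p was under 0.05 (EGR1 was not tested), with a black line at each list's median. The dashed line is the median of all tested features, 0.50. The list medians lie between 0.29 and 0.85. The highest, 0.85, is that of the 10 members with EGR1, which was chosen by its value. Over the other 9 members the median is 0.71.

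The pattern of *EGR1* over the 4 libraries was compared with that of 11394 features with a mean of at least 5 TPM, by Euclidean distance between centred log2(TPM + 1) values. *EGR1* was chosen by its increase, and this distance keeps the size of a change, so near features are largely those with similar increases. The distances and ranks are therefore a description and no separate evidence of shared regulation. The nearest were *CLIP3* (distance 0.36), *TFPI2* (0.43), *SDCBP2-AS1* (0.45), *HIST1H2BC* (0.54) and *FAM73A* (0.73). By log2 fold change these ranked 2, 3, 4, 6 and 9 of 14208. Among the members abundant enough to enter, *FOS* was the nearest at rank 231 (1.58), followed by *FOSL2* at 1728 (2.10) and *JUN* at 4048 (2.44). *IER2*, *JUNB* and *JUND* ranked 9695, 10874 and 11170.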

How the data were processed

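Each of 4 RNA-seq libraries (2 siControl, 2 siCNOT4) had a deposited table of TPM for 20457 symbols. Per the submitters' processing notes, the tools were FastQC 0.11.2, STAR 2.5.3a and featureCounts with build hg19; the annotation and strand setting are not given in the sources used here, so overlapping genes may share reads. The authors' TPM sum to 1000000 in each library, so abundant genes that fall raise all others.

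TPM steps gave whole reads for 99.96% of 19734 features above 0 (within 0.001 of a read); the totals of 26308323, 24472354, 27797019 and 27573664 reads set the Poisson intervals, which cover counting error only, since reads lack molecular identifiers. Groups came from the titles and were compared with limma 3.58.1 (R 4.3.3, eBayes with trend) on log2(TPM + 1), mean TPM of at least 1, Benjamini-Hochberg adjustment over 14208 features, threshold 0.05. The count test on recovered reads was limma voom. The test was tried first on simulated data with known changes.

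The members and lists were chosen with earlier results of these data known. Named genes were *CNOT4*, the 10 members, up to 3 called genes per list and direction with the largest changes (with no call, the largest change), *EGR4*, *FOSL1*, *ATF3*, *NAB1*, *NAB2* and the 5 features nearest to *EGR1*. *BATF* was not among the listed symbols. Promoter motifs (both strands) also included the ETS site CCGGAA (17.2% of windows), the EGR site GCGNGGGCG (9.43%), GGGCGG (45.0%), CCAAT (34.6%) and TATAAA (11.5%). Among the members' windows, the ETS site was found for *IER2* and *FOSB*, and the EGR site for *EGR1* and *EGR2*. CCAAT was found for *JUN*, *JUNB* and *JUND*, TATAAA for *FOS*, *JUNB* and *FOSB*, and GGGCGG for all but *EGR1* and *JUNB*. Transcript measures used GENCODE 29; no coordinates were converted between builds.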

Additional observations from a re-analysis of the deposited data

How the results depend on the processing

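Over 11 alternatives no direction reversed among the 31 single genes followed; of their 334 values, 233 kept their side of the threshold or moved by less than 1 SD, 51 lost and 35 gained a call, and 15 moved, as values with no test. Called genes over all features numbered 1792, and 558 with a pseudocount of 0.1, 908 with no filter on mean TPM, 147 with a mean TPM of at least 5, and 450 to 11311 when 1 library was left out. The 9 members other than *EGR1* had 2 calls, and 1 with the pseudocount of 0.1, 0 with the higher minimum (which removed *EGR2*, *EGR3* and *FOSB* from the test), 4 after quantile normalization, 4 with voom on recovered reads (added after the data were seen), and 1 to 8 with 1 library left out. Relatives had 1 call, and 0 with no filter or the higher minimum, 2 after TMM scaling, 4 after quantile normalization, 2 with voom, and 0 to 9 with 1 library left out. Other immediate early genes had 6, and 1 with the pseudocount of 0.1, with no filter or with the higher minimum, 11 after quantile normalization, and 1 to 26 with 1 library left out. SRF, its cofactors and CREB had 0, and 1 after TMM scaling, 2 after quantile normalization, 1 with voom, and 0 to 8 with 1 library left out. RAS, RAF and MAP kinases had 2, and 0 with the pseudocount of 0.1, no filter, the higher minimum or TMM scaling, and 0 to 22 with 1 library left out. ERK feedback and output genes had 5, and 2 with the pseudocount of 0.1, 0 with no filter or the higher minimum, and 0 to 13 with 1 library left out. AU-rich element binding proteins had 1, and 0 with the pseudocount of 0.1, no filter or the higher minimum, 2 after quantile normalization (both lower, against 1 higher for TPM as deposited) or with voom (1 in each direction), and 0 to 8 with 1 library left out. The higher minimum left 11395 features in the test, against 14208. The cause of these shifts was not tested. Voom called 1553 features higher and 431 lower.

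The labels do not say whether a replicate number marks a shared culture or day, and the deviations of same-numbered libraries correlated at 0.171 with only 2 pairs. With a replicate block the calls were 3655 over all features, 5 of the 9 members, 4 relatives, 2 for SRF and CREB, 10 for RAS, RAF and MAP kinases and 2 AU-rich element binding proteins. *EGR2*, *EGR3* and *FOSB* rest on as few as 27 to 32 reads in siControl replicate 2, which limits their folds.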

Other observations

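Some immediate early genes outside the 10, and the ERK output gene *CCND1*, were lower in siCNOT4. They are given here as values chosen after they were seen. *MYC*, the growth factor-responsive oncogene, was at 73.5 and 33.9 TPM in siControl and 27.2 and 28.5 TPM in siCNOT4 (log2 fold change -0.82, limma adjusted p = 0.138), and its siControl libraries differed by 2.17 times. *ID1*, an inhibitor of basic helix-loop-helix factors like *ID3*, was at 15.5 and 19.7 against 8.29 and 9.85 TPM (-0.88, limma adjusted p = 0.0739). *IER5* was at 57.4 and 55.5 against 33.3 and 35.5 TPM (-0.70, limma adjusted p = 0.0579). *CCND1*, the cyclin gene in the ERK output list, was at 49.3 and 32.3 against 20.1 and 24.8 TPM (-0.81, limma adjusted p = 0.0868). In all 4 genes both siCNOT4 values were below both siControl values, and none passed the threshold for TPM as deposited. Over all tested features 10.6% lay below in this way and 66.4% above. Of 32 tested genes in the list of other immediate early genes, 7 lay below and 19 above. Of 16 in the ERK output list, 2 lay below and 10 above.

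*NR4A1*, *NR4A2* and *NR4A3*, nuclear receptors known to be induced together with *FOS*, had ratios of means of 2.03, 1.88 and 2.95. In each, both siCNOT4 libraries lay above both siControl libraries, as they did in 66.4% of all tested features. *NR4A1* was at 8.02 and 6.57 against 13.1 and 16.4 TPM (0.92, limma adjusted p = 0.0702) and *NR4A2* at 5.27 and 2.75 against 6.93 and 8.18 TPM (0.81, limma adjusted p = 0.116). *NR4A3* stayed under 1 TPM in every library and was not tested.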
